A study of Mus musculus with 8 samples.

Results

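The mRNA levels of 9 heat shock and chaperone genes were followed in oligodendrocytes and microglia of 24-month-old mice. The genes were taken from a fixed list and not by a threshold: Hspa1a, Hspa1b, Hsph1, Dnajb1, Hsp90aa1, Hspa5, Hspa8, Hspb1 and Cryab, 9 of the 17001 genes listed for both genotypes. Each was read in every deposited oligodendrocyte cluster of 8 single-cell libraries and in every microglia cluster of the 4 Rag1-/- libraries. Wild-type mice were labelled C57BL/6 and gave 2 gray and 2 white matter libraries. Mice lacking Rag1, which have no functional lymphocytes, were labelled NOD.129S7(B6)-Rag-1tm1Mom/J and gave 1 gray and 3 white matter libraries, although the study's methods name a Rag1-/- line on the wild-type background. Gray matter was the frontal cortex, and white matter was taken from the corpus callosum, the medial lemniscus and the optic tract. All 4 groups shared perfusion, papain digestion with actinomycin D present, which blocks new transcription during dissociation, and a sort for cells that excluded SYTOX Blue. Each genotype came in 2 labelled batches, called experiments 1 and 2 here. The gray and white matter libraries of a wild-type experiment came from the same pool of mice. Rag1-/- experiment 1 (gray matter and white matter library 1) used a pool of mice as well, while for experiment 2 the study's list of mice names a single mouse for each of white matter libraries 2 and 3. The labels state that 2 tissue samples went into each library, which differs from that list, so how many mice these libraries stand for is uncertain. Genotype therefore coincided with experiment, with the version of the counting software named in the methods and, per the labels, with strain, and these cannot be told apart.

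Molecular chaperones hold unfolded proteins in a state from which they can fold, and heat shock factors raise the inducible ones when damaged protein accumulates in the cytosol. HSP70 proteins work in a cycle with HSP40 co-chaperones, which deliver the substrate, and with HSP110 proteins, which exchange the nucleotide, and HSP90 receives part of the substrates downstream. Small heat shock proteins bind unfolded protein without using ATP, and among them αB-crystallin, the product of Cryab, is known as an abundant protein of myelinating oligodendrocytes. The endoplasmic reticulum (ER), where membrane and secreted proteins fold, has its own HSP70, called BiP and encoded by Hspa5, which rises in the unfolded protein response. Freshly dissociated brain cells are known to raise inducible chaperones and immediate early genes during preparation.

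Promoters of 6 of the 9 genes were found in RefSeq (GRCm38.p6, 250 bases before to 50 after the start), with 8 starts in all. The 4 shown are those of Hspa1a and Hspa1b, whose levels spread most between libraries once the nearly absent Hspb1 is set aside, of Hsph1, the only one with a 3-unit heat shock motif, and of Hspa5, which carries an ER motif. Capitals mark matches to the heat shock element as 2 inverted units (GAANNTTC or TTCNNGAA) or 3 units (GAANNTTCNNGAA or TTCNNGAANNTTC), or to the ER stress element (CCAAT, 9 bases of any kind and CCACG), all searched on both strands.
Hspa1a, chr17:34972107-34972406, minus strand: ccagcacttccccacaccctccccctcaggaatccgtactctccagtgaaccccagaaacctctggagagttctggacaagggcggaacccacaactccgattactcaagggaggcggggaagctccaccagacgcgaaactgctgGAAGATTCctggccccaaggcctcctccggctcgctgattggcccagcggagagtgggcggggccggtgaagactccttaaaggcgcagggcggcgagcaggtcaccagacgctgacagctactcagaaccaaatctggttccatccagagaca
Hspa1b, chr17:34959189-34959488, minus strand: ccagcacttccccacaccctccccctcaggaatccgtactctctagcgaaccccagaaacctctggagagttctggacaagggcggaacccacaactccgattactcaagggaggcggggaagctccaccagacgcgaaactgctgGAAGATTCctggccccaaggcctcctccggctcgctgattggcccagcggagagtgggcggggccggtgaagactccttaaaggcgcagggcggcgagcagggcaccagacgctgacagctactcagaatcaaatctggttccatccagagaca
Hsph1, chr5:149636287-149636586, minus strand: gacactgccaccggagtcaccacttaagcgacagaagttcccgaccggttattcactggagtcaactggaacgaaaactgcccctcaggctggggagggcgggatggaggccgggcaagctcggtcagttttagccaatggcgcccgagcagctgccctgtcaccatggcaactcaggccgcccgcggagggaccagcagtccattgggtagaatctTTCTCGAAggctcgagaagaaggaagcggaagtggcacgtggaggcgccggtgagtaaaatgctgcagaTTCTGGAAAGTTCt
Hspa5, chr2:34771840-34772139, plus strand: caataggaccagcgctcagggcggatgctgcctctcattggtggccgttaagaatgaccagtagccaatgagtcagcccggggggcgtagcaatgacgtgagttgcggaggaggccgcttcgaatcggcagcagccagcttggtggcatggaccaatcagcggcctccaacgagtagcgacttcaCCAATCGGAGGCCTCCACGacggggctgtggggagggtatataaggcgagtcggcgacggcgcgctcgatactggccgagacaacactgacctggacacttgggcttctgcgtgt
The Hspa1a and Hspa1b windows differed at 4 of 300 bases (98.7% identical), and both held a 2-unit match at −104 to −97 from the start. The genes themselves, Hspa1a at chr17:34969190-34972156 and Hspa1b at chr17:34956436-34959238, lie 9951 bases apart and encode nearly identical proteins, so the split of reads between them is uncertain. Hsph1 (chr5:149614287-149636376) held a 3-unit match at 36 to 48 bases, which contains 2 overlapping 2-unit matches, and a separate 2-unit match at −33 to −26. Of 32851 promoter windows, 0.603% held a 3-unit match and 15.1% a 2-unit match. Hspa5 (chr2:34771970-34777547) held the ER stress element at −65 to −47, as did 0.119% of windows. Hspb1 held 2 of the 2-unit matches, and neither Dnajb1 window held any of the motifs. These matches describe letters and not bound sites.

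Levels are given as UMIs (unique molecular identifiers, each counted once per captured transcript) of a gene relative to all UMIs of the oligodendrocytes, or of the microglia, of a library (CPM, with all UMIs scaled to 1000000). The 8 libraries held 29631 cells (8726 wild type, 20905 Rag1-/-), of which 15604 were deposited as oligodendrocytes (6003 and 9601) and 7421 as Rag1-/- microglia. Summed oligodendrocyte UMIs ran from 2754274 to 44269555 per library, and the wild-type experiment 1 libraries were the shallowest. Libraries of a pair shared at most 15 cell barcodes, 92 barcodes in all. Oligodendrocyte marker genes summed to between 46857 and 55078 CPM in every group, whereas neuron markers summed to at most 11.3 CPM and microglia markers to 71.4 to 853 CPM. Astrocyte markers summed to 266 to 315 CPM in gray and 115 to 163 CPM in white matter oligodendrocytes, and choroid plexus markers to at most 7.95 CPM in gray and 18.1 to 32.9 CPM in white matter. Haemoglobin genes reached 1316 CPM in wild-type and 611 CPM in Rag1-/- gray matter, at most 0.251 CPM in wild-type white matter and at most 87.3 CPM in Rag1-/- white matter. Over all cells, Rag1 had 0, 3, 0 and 24 UMIs in wild-type libraries and 37 to 108 in Rag1-/- libraries. Reads came from the 3′ end of transcripts, so these counts do not check a deletion further upstream. The T cell gene Cd3d had 39 to 1874 UMIs in wild-type libraries and 0 to 33 in Rag1-/- libraries.

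With the nearly absent Hspb1 set aside, Hspa1a and Hspa1b varied most between libraries, and they split by experiment in both genotypes and not by tissue. Dnajb1 and Hsph1 varied less, with spans of 2.46-fold and 2.09-fold, and Hspa8, Hsp90aa1 and Cryab stayed within a narrow range. Hspa1a, inducible HSP70, measured 5.12 and 16.6 CPM in wild-type gray matter libraries 1 and 2 and 3.19 and 15.9 CPM in white matter libraries 1 and 2. The Rag1-/- gray matter library had 14.2 CPM, and Rag1-/- white matter libraries 1, 2 and 3 had 17.8, 9.89 and 5.62 CPM. The highest library was 5.59-fold above the lowest, and high and low libraries occurred in both genotypes. Hspa1b, the neighbouring gene for the same chaperone, measured 8.04 and 20.7 CPM in wild-type gray matter and 6.87 and 19.1 CPM in white matter. Rag1-/- gray matter had 35.5 CPM, and the Rag1-/- white matter libraries had 41.3, 18.5 and 7.58 CPM, a span of 6.01-fold over the 8 libraries. The experiment 1 libraries were thus the lowest of the wild type and the highest of the Rag1-/- mice. Hsph1, the HSP110 exchange factor, measured 80.4 and 82.2 CPM in wild-type gray matter and 68.9 and 77.4 CPM in white matter. Rag1-/- gray matter had 83.4 CPM and white matter 88.0, 42.1 and 44.3 CPM, so that only white matter libraries 2 and 3 stood apart. Dnajb1, the HSP40 partner, measured 35.1, 38.0, 31.2 and 41.2 CPM in wild-type gray 1 and 2 and white 1 and 2. Its Rag1-/- levels were 30.2 CPM in gray and 36.2, 25.4 and 16.7 CPM in white matter, with libraries 2 and 3 again lowest.

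Hsp90aa1, the inducible HSP90, lay between 2149 and 2556 CPM in all 8 libraries, a 1.19-fold span. Hspa8, the constitutive HSP70, lay between 1366 and 1691 CPM (1.24-fold). Cryab lay between 3623 CPM, in wild-type gray matter library 1, and 4940 CPM, in Rag1-/- gray matter (1.36-fold). Hspa5 took an intermediate place. It measured 334 and 388 CPM in wild-type gray and 311 and 441 CPM in wild-type white matter, and in Rag1-/- mice 498 CPM in gray and 481, 302 and 312 CPM in white matter (1.65-fold over all). Hspb1, a small heat shock protein, was close to absent. No UMI was seen in 15237536 UMIs of wild-type gray matter, which allows up to 0.197 CPM. Wild-type white matter held 34 UMIs or 0.683 CPM, which is 3.47-fold that limit over both pools combined. In pool 1 the gray matter limit of 1.10 CPM lay above the 1.01 CPM of white matter, so that no difference could be bounded. In pool 2 white matter, at 0.639 CPM, was 2.66-fold the gray matter limit of 0.240 CPM. The counting error of the white matter values is not in these ratios. Astrocyte and choroid plexus markers also differed between the tissues, and their part in this difference was not tested. Rag1-/- gray matter held 3 UMIs and white matter 55 UMIs, or 0.616 CPM. Such limits cover counting error only.

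**Figure D1:**
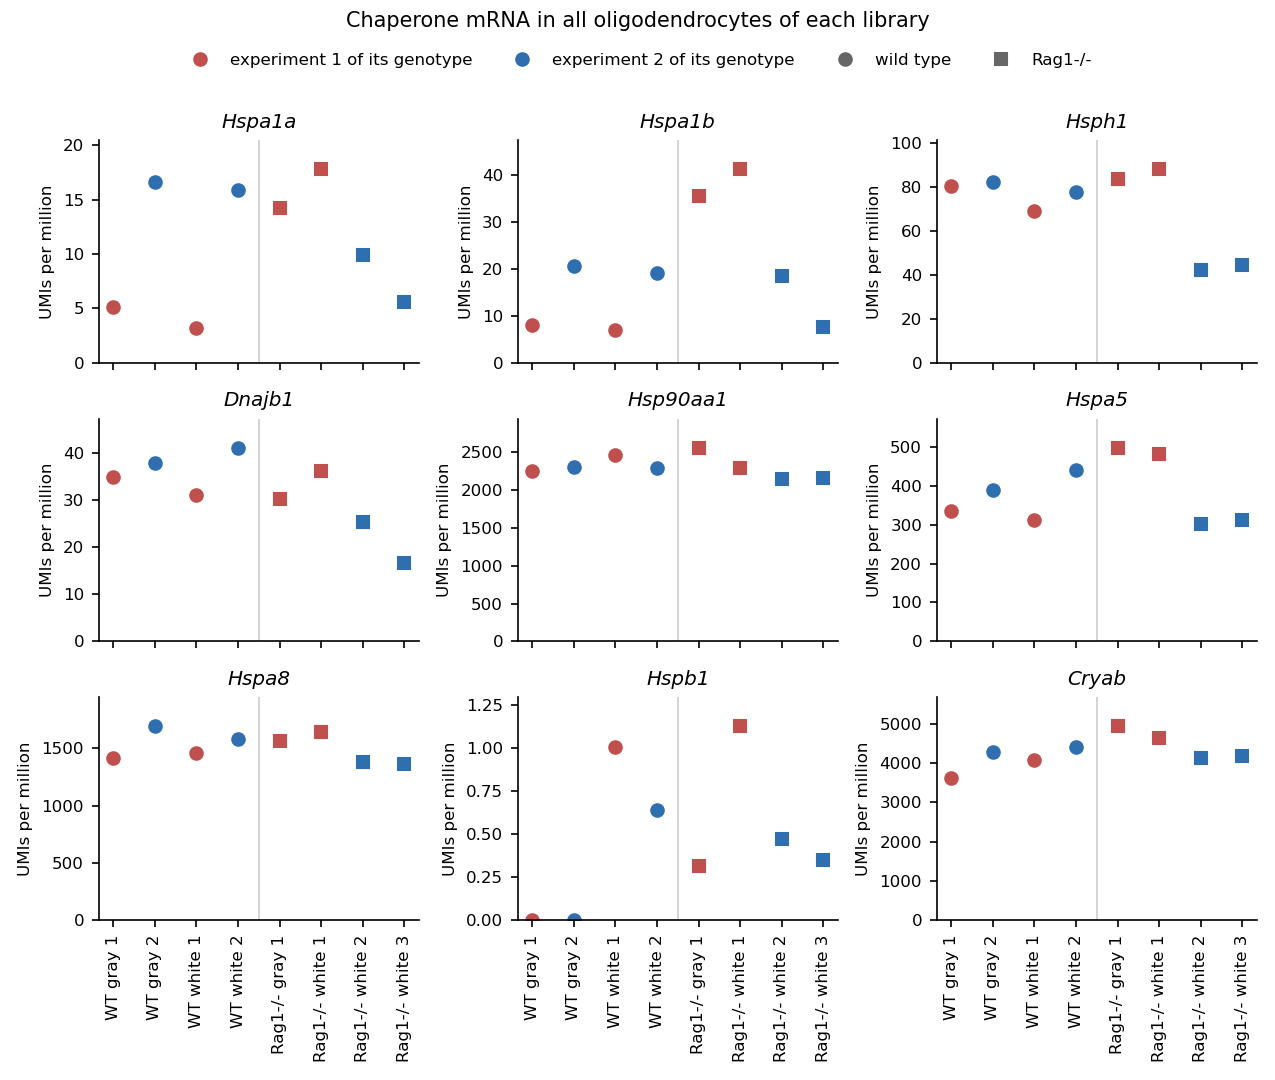
Level of each gene in all oligodendrocytes of each library, in CPM on a linear axis that starts at 0. Each point is 1 library, circles are wild type and squares Rag1-/-, and colour gives the experiment. Red circles lie below blue circles and red squares above blue squares for Hspa1a and Hspa1b.

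The direction of the split was opposite in the 2 genotypes. In Rag1-/- oligodendrocytes, both experiment 1 libraries exceeded both experiment 2 libraries for 8 of 9 genes, all but Hspb1, while 31% of all tested genes showed that order. White matter library 1 exceeded the mean of libraries 2 and 3 by 3.17-fold for Hspa1b, 2.76-fold for Hspb1 (31 UMIs against 10 and 14), 2.30-fold for Hspa1a, 2.03-fold for Hsph1, 1.72-fold for Dnajb1 and 1.56-fold for Hspa5, all within the same tissue. The same comparison gave 1.06-fold for Hsp90aa1, 1.12-fold for Cryab and 1.19-fold for Hspa8. In wild-type oligodendrocytes, both experiment 2 libraries exceeded both experiment 1 libraries for 6 of 9 genes (Hspa1a, Hspa1b, Dnajb1, Hspa5, Hspa8 and Cryab), while 20.6% of all tested genes did. The mean of experiment 2 was 3.91-fold that of experiment 1 for Hspa1a and 2.67-fold for Hspa1b, but 1.20-fold for Dnajb1 and 1.28-fold for Hspa5. No test of these orders was made, since an experiment held 1 or 2 libraries of a tissue. Mice, preparation and, in Rag1-/-, the version of the counting software changed together between experiments and cannot be told apart.

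Whether white and gray matter differed, and whether Rag1-/- mice differed from wild type, was tested with edgeR's quasi-likelihood test on counts summed per library, with p-values adjusted by Benjamini-Hochberg over 13067 genes. The fit did not pair the gray and white matter libraries of a pool, so its standard errors include differences between pools. Rag1-/- gray matter was 1 library, so in its contrasts the spread came from the other 3 groups, and that library was assumed to vary like them. None of the 9 genes passed an adjusted p of 0.05 in any of the 5 oligodendrocyte contrasts, and DESeq2 called none either. Between white and gray matter of wild-type mice, where 1% of all tested genes were called, the median log2 fold change of the 9 genes was 0.01 (all genes, −0.01). There Hspa1a differed by −0.20 ± 0.71 (SE), Hspa1b by −0.17 ± 0.75, Hspa5 by 0.07 ± 0.24 and Cryab by 0.12 ± 0.12 on the log2 scale. Hsph1 stood at −0.14 ± 0.31, Dnajb1 at 0.01 ± 0.31, Hsp90aa1 at 0.08 ± 0.09 and Hspa8 at −0.02 ± 0.13. Hspb1 was the only gene of the 9 with an unadjusted p under 0.05 (edgeR adjusted p = 0.256). With the mouse pool as a fixed replicate block, each wild-type white matter library is set against its own gray matter. The spread then comes from these pairs alone. In that fit Hspb1 passed (edgeR adjusted p = 0.0434). With the pool as a random block at the estimated correlation of 0.49 it did not pass (adjusted p = 0.178), nor did it in any of the other 10 alternatives, whose adjusted p ran from 0.201 to 0.771. The values rest on 6 and 28 UMIs in white matter against none in gray matter.

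In Rag1-/- mice, where 0.436% of all tested genes were called between white and gray matter, 8 of 9 genes were lower in white matter, with a median of −0.21 (all genes, 0.02). Hsph1 differed by −0.51 ± 0.34 (SE), Hspa5 by −0.44 ± 0.27, Hsp90aa1 by −0.21 ± 0.11 and Hspa1b by −0.66 ± 0.77. Hspa1a stood at −0.36 ± 0.79, Dnajb1 at −0.21 ± 0.34, Hspa8 at −0.09 ± 0.15 and Cryab at −0.18 ± 0.14, and Hspb1 at 1.03 ± 1.13. None passed and none had an unadjusted p under 0.05. Within experiment 1, the only Rag1-/- experiment with both tissues, the order turned: 6 of 9 genes were higher in white matter and 3 lower. These are log2 ratios of normalized levels in 2 libraries, with no test. A small count was added to each level, which bears most on Hspb1 with its few UMIs. The ratio was 0.31 for Hspa1a, 0.21 for Hspa1b, 0.06 for Hsph1, 0.25 for Dnajb1, 0.06 for Hspa8 and 1.56 for Hspb1 (3 UMIs in gray matter), and −0.17 for Hsp90aa1, −0.06 for Hspa5 and −0.10 for Cryab. Without white matter library 1, which leaves white matter of experiment 2 against gray matter of experiment 1, Hsph1 stood at −0.92. Between the genotypes in white matter, where 0.911% of genes were called, the 9 genes had a median of −0.0048 (all genes, 0.01) and no unadjusted p under 0.05. Hspa1b differed by 0.70 ± 0.65, Hsph1 by −0.29 ± 0.27, Dnajb1 by −0.45 ± 0.27 and Cryab by 0.07 ± 0.11. Hspa1a stood at 0.09 ± 0.61, Hsp90aa1 at −0.06 ± 0.09, Hspa5 at 0.0005 ± 0.21, Hspa8 at −0.0048 ± 0.12 and Hspb1 at −0.22 ± 0.72. For Hsph1, Rag1-/- library 1 lay above both wild-type white matter libraries and libraries 2 and 3 below them, whereas for Hspa1b, Dnajb1 and Cryab at least 1 Rag1-/- library lay within the wild-type range. Against wild type, the experiment 2 libraries alone gave −0.70 for Hsph1, which edgeR called (adjusted p = 0.0245), and library 1 alone gave 0.30. The share of all genes called was taken for the main fits only.

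In gray matter, where 0.536% of genes were called between genotypes, 8 of 9 genes were higher in the single Rag1-/- library, with a median of 0.25 (all genes, −0.02). Cryab was the only one with an unadjusted p under 0.05 (log2 fold change 0.37 ± 0.15, edgeR adjusted p = 0.752), and its difference was 0.23 without wild-type gray matter library 1. Hspa1b differed by 1.19 ± 0.87 and Hspa5 by 0.51 ± 0.28. Hspa1a stood at 0.25 ± 0.87, Hsph1 at 0.09 ± 0.38, Dnajb1 at −0.23 ± 0.38, Hsp90aa1 at 0.22 ± 0.12 and Hspa8 at 0.06 ± 0.16, and for Hspb1, with 3 UMIs against none, no fold is given. The tissue difference in Rag1-/- minus that in wild type was below 0 for all 9 genes (median −0.30; all genes, 0.03). It was −0.16 ± 1.07 for Hspa1a, −0.49 ± 1.09 for Hspa1b, −0.38 ± 0.46 for Hsph1, −0.22 ± 0.46 for Dnajb1, −0.28 ± 0.14 for Hsp90aa1, −0.51 ± 0.36 for Hspa5, −0.07 ± 0.20 for Hspa8 and −0.30 ± 0.18 for Cryab. Rag1-/- white matter in this fit includes experiment 2, which has no gray matter library. Within experiments the direction held for some genes and not for others, as ratios with no test. White minus gray matter in Rag1-/- experiment 1 lay above both wild-type pools for 4 of 9 genes: Hspa1a (0.31 against −0.62 and −0.08), Hspa1b (0.21 against −0.17 and −0.12), Hsph1 (0.06 against −0.17 and −0.10) and Dnajb1 (0.25 against −0.12 and 0.11). It lay below both for Hsp90aa1, Hspa5 and Cryab and between them for Hspa8. Hspb1 could not be placed, since wild-type gray matter held no UMI of it. In the fit none was called and none had an unadjusted p under 0.05, and of all tested genes 0% were called, with 236 at an unadjusted p under 0.05. The contrasts share libraries, so their directions are not independent. With 8 libraries, simulated 2-fold changes were recovered in 37% of genes for the wild-type tissue contrast and 67% for the white matter genotype contrast, and 4-fold changes in 86% and 92%. Every simulated gene was given the same spread, with no pools of mice. The shares therefore do not hold for genes that vary more, such as Hspa1a and Hspa1b.

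**Figure D2:**
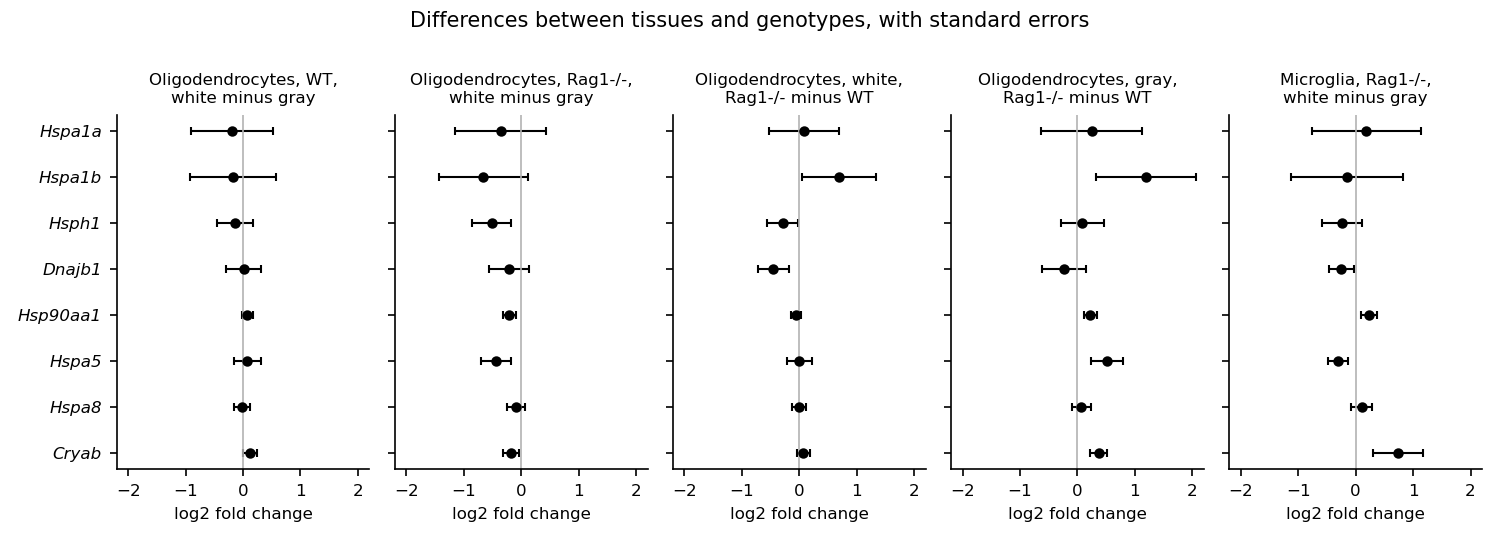
Log2 fold change of each gene (points) with its standard error (bars) in 4 oligodendrocyte contrasts and 1 microglia contrast, from edgeR. Hspb1 is left out because of its few UMIs. No gene passed an adjusted p of 0.05, and the bars of Hspa1a and Hspa1b are the widest.

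The same contrasts within single clusters gave no call. The deposited names are Oligo1a to 1c, Oligo2a to 2c, age-related oligodendrocytes (ARO) and interferon-responsive oligodendrocytes (IRO). In white matter, Rag1-/- against wild type, edgeR and DESeq2 called 0 of the 7 to 9 genes tested in each of the 8 clusters. The share of all genes called was 0.73% in Oligo1a, 0.571% in Oligo1b, 0.92% in Oligo1c, 0.85% in Oligo2a, 0.87% in Oligo2b, 0.891% in Oligo2c, 0.99% in ARO and 0.794% in IRO. Unadjusted p-values under 0.05 occurred for Hsph1 in Oligo1a (−0.70 ± 0.30) and Dnajb1 in ARO (−0.68 ± 0.30), both lower in Rag1-/-. Between white and gray matter of the wild type, 0 of 8 genes were called by either tool in any of the 5 clusters with enough cells in gray matter. The background there was 0.0474% in Oligo1a, 0.0295% in Oligo1b, 0.247% in Oligo1c, 0.0676% in Oligo2a and 0.154% in Oligo2b. Cryab in Oligo1c was the only gene of the 9 with an unadjusted p under 0.05 (0.33 ± 0.11, higher in white matter). Without Rag1-/- white matter library 1, only the experiment 2 libraries remained on that side. EdgeR then called Hsph1 lower in Rag1-/- in Oligo1a, Oligo1c, Oligo2b and ARO, and Dnajb1 lower in ARO. All these clusters come from the same libraries, so the calls are not independent. The shares of all genes given above belong to the main fits and were not taken here. Without wild-type white matter library 2, which leaves library 1 alone, Cryab in Oligo1b was higher in Rag1-/- white matter. It was lower in wild-type white than gray matter in that setting.

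Differences between clusters are given as a description with no test, because the clusters were drawn from the expression of the same cells. In the 5 white matter libraries, Cryab averaged 5223 ± 231 CPM in IRO (SD, n = 5) and 4978 ± 325 CPM in Oligo1c, against 3177 ± 152 CPM in Oligo2a and 3489 ± 123 CPM in Oligo2c. Hsp90aa1 followed a like order, with 2524 ± 180 CPM in IRO and 2497 ± 206 CPM in ARO, which overlap, and 1735 ± 113 CPM in Oligo2a. Oligo2a was lowest in 5 of 5 libraries for Hsp90aa1 and Hspa1b, and in 4 of 5 for Cryab. Hspa1b averaged 6.18 ± 6.14 CPM in Oligo2a and 27.2 ± 20.3 CPM in IRO, but the range over libraries within IRO, 8.86 to 58.1 CPM, covered the means of all clusters but Oligo2a. Within libraries, IRO was above the median cluster for Hspa1b in 5 of 5 and highest in 3, on 73 UMIs. Hspa8 was the most even, with cluster means of 1427 to 1529 CPM whose SDs overlapped throughout. Hspa5 was above the median cluster in 5 of 5 libraries in Oligo2c (446 ± 120 CPM) and lowest on average in Oligo1a (320 ± 65.6 CPM). Hsph1 had its lowest mean in Oligo1c (50.5 ± 18.8 CPM) and its highest in Oligo2b (76.5 ± 24.8 CPM), and within libraries Oligo1c was below the median cluster in 5 of 5 (lowest in 3) and Oligo2b above it in 5 of 5. Dnajb1 ranged from 25.7 CPM in Oligo2a to 32.9 CPM in Oligo1a, with no cluster lowest in more than 2 libraries. Oligo2a cells held more UMIs, with medians of 12768 to 18661 per cell in the white matter libraries against 7441 to 10951 in Oligo1a, and the part of this in the levels was not tested.

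Hspb1 stood out in ARO, the cluster marked in the study by Serpina3n and C4b. It averaged 2.48 ± 1.20 CPM there (SD, n = 5) and was highest of the 8 clusters in 5 of 5 white matter libraries. ARO held 41 of 89 Hspb1 UMIs of white matter oligodendrocytes, or 46.1%, with 16.3% of the cells. The UMIs lay in 60 cells, 29 of them ARO, and the cell with the most, 8 UMIs, was not ARO. Cells with a UMI had a median depth of 10144 UMIs and cells without one 10148, so depth was alike. The spread of the genes over libraries was set beside their spread over clusters, as a description with no test. Levels were put on a log2 scale after a small offset was added to the CPM. Over the white matter libraries, the SD of library means exceeded that of cluster means for Hspa1a (1.16 and 0.60), Hspa1b (1.08 and 0.69), Hsph1 (0.51 and 0.23), Dnajb1 (0.49 and 0.11), Hspa5 (0.32 and 0.16) and Hspa8 (0.12 and 0.04). The reverse held for Hsp90aa1 (0.05 between libraries and 0.18 between clusters) and Cryab (0.10 and 0.25). Hspb1 had 0.17 and 0.53, but its levels lie near the offset, which narrows both values, so it was not placed.

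**Figure D3:**
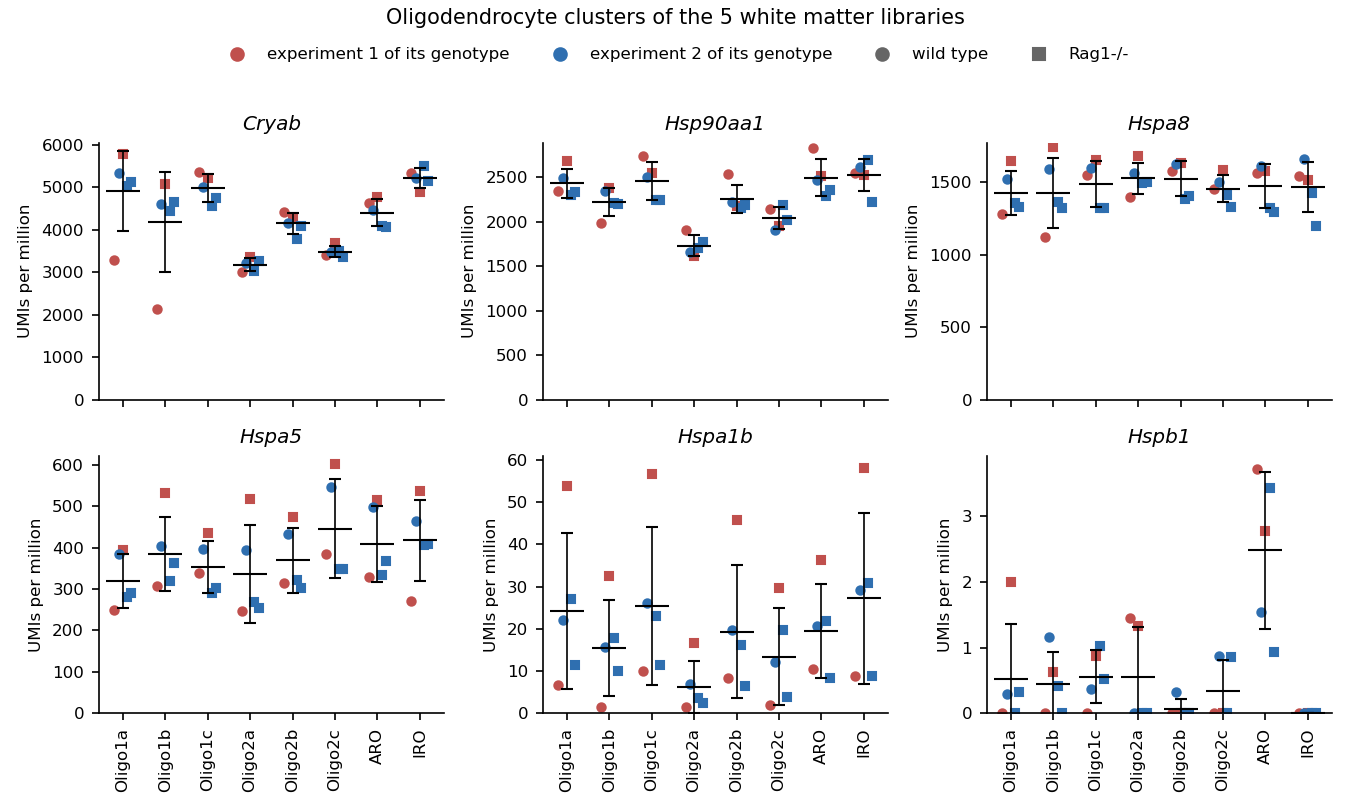
Level of 6 genes in each oligodendrocyte cluster of the 5 white matter libraries, in CPM on axes that start at 0. Points are libraries, horizontal lines the mean over 5 libraries and bars the SD. Cryab and Hsp90aa1 are lowest in Oligo2a, Hspb1 is highest in ARO, and for Hspa1b the libraries differ more than the clusters.

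Cryab was low in a set of cells that was common only in the wild-type experiment 1 libraries. In Oligo1a it measured 1793 CPM in gray matter library 1 and 3296 CPM in white matter library 1, against 4454 to 5784 CPM in the other 6 libraries. In Oligo1b it measured 3582 and 2134 CPM, against 4442 to 5299 CPM. The median Oligo1a cell held 9.93 and 19.3 Cryab UMIs per 10000 in these libraries and 41.4 to 54.0 in the others. With 20 per 10000 taken as a limit, chosen after the values were seen, 60 of 120 Oligo1a and Oligo1b cells (50%) lay below it in gray matter and 77 of 120 (64.2%) in white matter. The other libraries had 0.656% to 2.05%. The limit marks a range and not a cell type, since 9 and 26 cells lay within 5 of it. Genes chosen after their values were seen went with it: in the gray matter library, Sgk1, a glucocorticoid-induced kinase, had a median of 47.1 UMIs per 10000 in the low cells and 2.75 in the others, and Cdkn1a, a cell cycle inhibitor, 14.9 and 0. In the white matter library the medians were 38.7 and 2.14 for Sgk1 and 15.04 and 0 for Cdkn1a. Neither gene was confined to the low cells there. Summed over cells, Sgk1 measured 3946 CPM in the low cells and 794 CPM in the others, and Cdkn1a 1667 and 346 CPM.

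Of the other chaperones, some were lower in those cells. Hsph1 was higher in the gray matter library, at 118 CPM in low cells and 68.3 CPM in the others, on 62 and 43 UMIs. In the white matter library it measured 92.7 and 80.6 CPM on 73 and 38 UMIs, with medians of 0 on both sides. That small difference was not tested. Hsp90ab1, the constitutive HSP90, had gray matter medians of 9.08 UMIs per 10000 in low cells and 23.8 in the others, and white matter medians of 9.51 and 24.2. Hspa8 had 8.44 and 15.7, then 9.27 and 14.8, and Hsp90aa1 15.5 and 20.8, then 18.0 and 23.1. The myelin gene Mbp was instead higher in the low cells, with gray matter medians of 53.4 and 46.7 and white matter medians of 57.1 and 49.7, and the microglial gene Cx3cr1 had a median of 0 on both sides. Fkbp5, an HSP90 co-chaperone that glucocorticoids induce, summed to 148 CPM in low cells and 4.76 CPM in the others in gray matter, and to 111 and 17.0 CPM in white matter. Low cells held a median of 8714 UMIs against 10204 in gray matter, and 9971 against 10426 in white matter. Over all oligodendrocytes, Cdkn1a measured 341 and 344 CPM in the wild-type experiment 1 libraries and 0.880 to 8.97 CPM in the other 6.

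**Figure D4:**
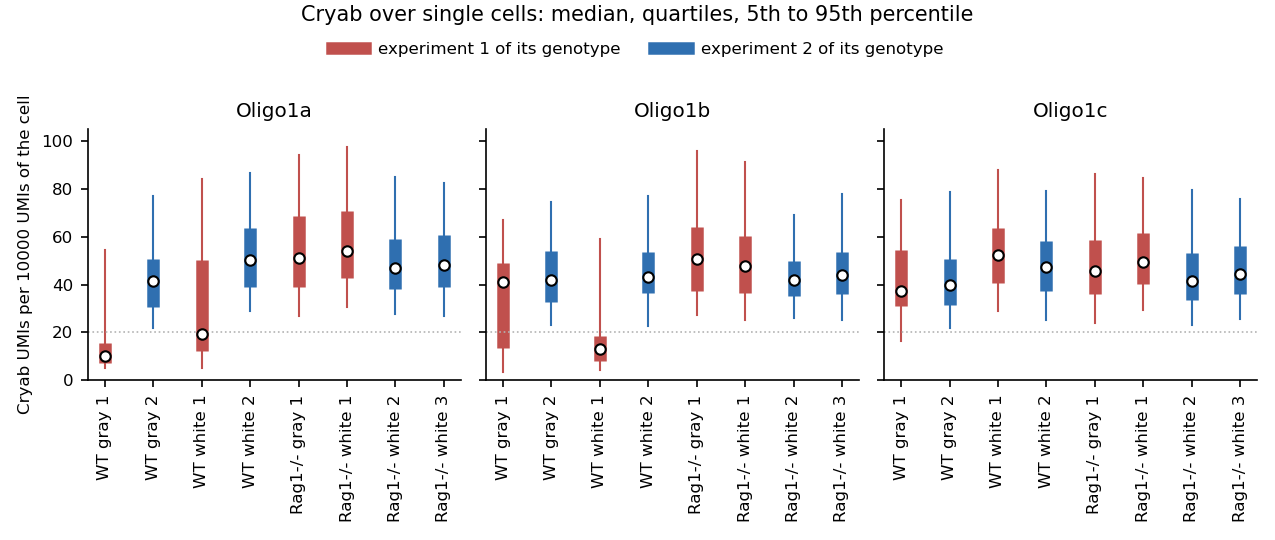
Cryab UMIs per 10000 UMIs of a cell in Oligo1a, Oligo1b and Oligo1c of each library. White points are medians, thick bars the quartiles, thin lines the 5th to 95th percentiles and the dotted line the limit of 20. Low medians occur in the red wild-type libraries of experiment 1 for Oligo1a and for white matter Oligo1b.

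The share of cells with a UMI of Hspa1b differed between libraries as its level did. After every cell was thinned to 4000 UMIs (253 of 15604 cells were shallower and left out), Hspa1b was found in 2.89% and 7.18% of oligodendrocytes of wild-type gray 1 and 2, and in 2.73% and 6.54% of white 1 and 2. In Rag1-/- libraries it was found in 11.6% of gray matter cells and 13.8%, 6.69% and 2.96% of white matter cells. Unthinned shares ran from 5.99% to 24.2%. In microglia of the Rag1-/- libraries the thinned share was 0.0798% to 0.585%, below every oligodendrocyte library. Of the 7421 microglia, 1507 were shallower than 4000 UMIs and left out. The median depths per cell were 8669 to 12926 UMIs in oligodendrocytes and 5416 to 6751 in microglia before thinning. Hspa1a was found in 1.35% to 6.47% of thinned oligodendrocytes, with experiment 1 again lowest in wild type and the white matter library of experiment 1 highest in Rag1-/-. Single cells did not carry the totals, since the cell with the most Hspa1b held 0.835% to 13.6% of its UMIs in a library. Of the Hspa1a-positive cells, more held Hspa1b than of the Hspa1a-negative cells: 40.8% did in Rag1-/- white matter library 1, against 21.7%, before thinning and among cells of at least 4000 UMIs. The Hspa1a-positive cells there were deeper, with a median of 9194 UMIs against 8630 in the others, as they were in 7 of 8 libraries. The first share was higher in 8 of 8 libraries, but the part of reads that match both genes was not tested, and in wild-type experiment 1 it rested on 1 and 2 cells with both.

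Over the 55 sums of a library and a cluster, the pattern most like that of Hspa1a among 7907 genes was Dlg2 (Pearson r of log2 CPM = 0.80), followed by Itch (0.79), Ncbp2 (0.76), Ppp6r3 (0.75) and Tm9sf3 (0.75). Hspa1b had 0.76, Hspa8 0.54 and Hsph1 0.20. For Cryab the nearest genes were Hsp90ab1 (0.92), Chn2 (0.88), Bfsp2 (0.83), Lap3 (0.83) and Qdpr (0.80), with 0.78 for Hsp90aa1 and −0.23 for Hsph1. Sums of 1 library share its preparation and depth, so these values describe the 55 points and have no p.

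A further list of 85 chaperone and protein folding genes, chosen with earlier results known, was read in the same fits, and 81 of them passed the filter on low counts. EdgeR called none in any oligodendrocyte contrast. Between white and gray matter of the wild type, the median was 0.11 (all genes, −0.01), 60 of 81 were above 0, and 6 (7.41%, against 9.58% of all tested genes) had an unadjusted p under 0.05, all higher in white matter (Pfdn2, Pfdn4, Dnaja1, Hspb2, Cct2 and Hspa2; smallest edgeR adjusted p = 0.108). All 12 tested subunits of the cytosolic chaperonin TRiC and of prefoldin, which fold actin and tubulin, were above 0, with a median of 0.19. In Rag1-/- mice the tissue median was −0.03, 38 of 81 were above 0 and 2 (2.47%, against 9.62% of all tested genes) had an unadjusted p under 0.05, with 10 of 12 TRiC and prefoldin genes above 0 (median 0.12). HSP90 and its partners had a median of 0.11 in wild type and −0.27 in Rag1-/-, and ER chaperones 0.10 and −0.09. Between genotypes the 81 genes had a median of −0.02 in white and 0.12 in gray matter, each with 6 (7.41%) at an unadjusted p under 0.05, where 8.29% and 6.36% of all tested genes had one. For the difference of the tissue contrasts the median was −0.11, with 1 such gene (1.23%, against 1.81%). No p was adjusted over the list alone.

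Immediate early genes were read because dissociation is known to raise them. Fos measured 1.46 and 0 CPM in wild-type gray and 22.6 and 32.8 CPM in wild-type white matter, and 0.837 CPM in Rag1-/- gray and 20.5, 12.5 and 23.0 CPM in white matter. Gray and white matter did not overlap in either genotype. Of 17 tested genes, edgeR called 3 higher in wild-type white matter, where 1% of all tested genes were called: Fos (log2 fold change 6.65 ± 0.79, adjusted p = 0.0086), Fosl2 (1 and 2 UMIs in gray against 50 and 370 in white matter, adjusted p = 0.00667) and Junb (3.08 ± 0.32, adjusted p = 0.00667). In Rag1-/- it called 2 of 17, against 0.436% of all tested genes, Fosl2 (1 UMI in gray against 87, 53 and 190 in white matter, adjusted p = 0.0395) and Junb (3.57 ± 0.42, 15 UMIs in gray matter, adjusted p = 0.0188), and not Fos (4.49 ± 0.79, adjusted p = 0.0569). These calls set a single gray matter library against 3, with the spread taken from the other groups. Between genotypes in white matter 1 of 17 was called, against 0.911% of all tested genes, Nr4a1, lower in Rag1-/- (−0.74 ± 0.11, adjusted p = 0.0148). Jun lay between 121 and 227 CPM with overlapping tissues, with log2 fold changes between white and gray matter of 0.03 ± 0.23 in wild type and −0.20 ± 0.26 in Rag1-/-. Between genotypes Fos stood at −0.54 ± 0.36 in white and 1.62 ± 1.5 in gray matter, and Jun at −0.17 ± 0.20 and 0.06 ± 0.28. The tissue difference in Rag1-/- minus that in wild type was −2.16 ± 1.54 for Fos and −0.23 ± 0.34 for Jun. In wild-type white matter of experiments 1 and 2, Fos measured 22.6 and 32.8 CPM, and Hspa1a 3.19 and 15.9 CPM. In Rag1-/- white matter libraries 1, 2 and 3, Fos measured 20.5, 12.5 and 23.0 CPM, and Hspa1a 17.8, 9.89 and 5.62 CPM. There the library with the most Fos had the least Hspa1a, and a link between them was not tested.

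In Rag1-/- microglia, the resident macrophages of the brain, most of the genes lay at other levels than in oligodendrocytes of the same library. Cell types were not tested against each other. Hspa5 was higher in microglia, at 108% to 137% of the oligodendrocyte level, with 649 CPM in gray and 521, 415 and 395 CPM in white matter libraries 1, 2 and 3. Dnajb1 lay at 74.3% to 112% and Hspa8 at 39.6% to 45.4%. Hsp90aa1 was far lower, at 8.93% to 11.1%, with 215 to 239 CPM. Inducible HSP70 was nearly absent: Hspa1b had 0.380 to 1.65 CPM (2.23% to 5.01% of the oligodendrocyte level) and Hspa1a 0.411 to 1.29 CPM, and 1 cell held 13 of 37 Hspa1b UMIs of white matter library 1. Cryab measured 54.1 CPM in gray and 53.8, 56.3 and 119 CPM in white matter, or 1.09%, 1.16%, 1.36% and 2.85% of oligodendrocytes. The oligodendrocyte gene Mbp stood at 1.43%, 1.59%, 3.27% and 5.39% in the same cells, and oligodendrocyte markers summed to 386 CPM in gray and 410 to 1724 CPM in white matter microglia. The part of such RNA in the Cryab level of microglia was not tested. Hspb1 had 9, 15, 1 and 0 UMIs, and the 0 in white matter library 3 allows up to 0.380 CPM.

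**Figure D5:**
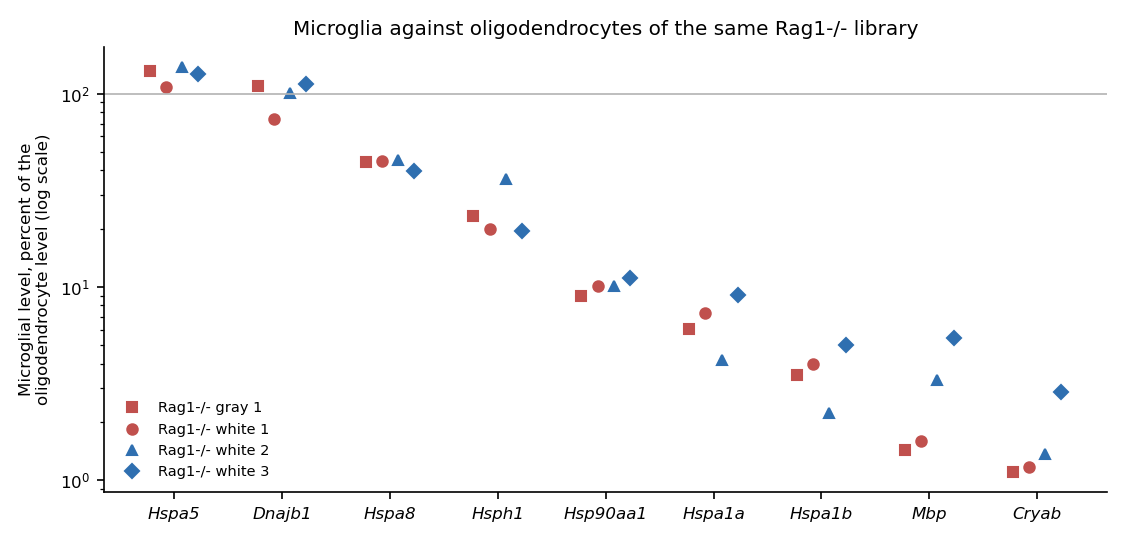
Level in microglia as a percent of the level in oligodendrocytes of the same Rag1-/- library, on a log axis. Each symbol is 1 library and the gray line marks equal levels. Hspa5 lies above the line in 4 of 4 libraries, and Cryab, at 1.09% to 2.85%, lies below the oligodendrocyte gene Mbp in each library.

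The order of the 2 experiments recurred in microglia for most of the genes. Both libraries of experiment 1 exceeded both of experiment 2 for 6 of the 8 genes tested in microglia (Hspa1a, Hspa1b, Hsph1, Dnajb1, Hspa5 and Hspa8), against 29.7% of all tested genes. Hspa1a rested on 2 to 29 UMIs per library and Hspa1b on 2 to 37, and the part of oligodendrocyte RNA in them was not tested. Cryab separated the other way, with 53.8 to 54.1 CPM in experiment 1 and 56.3 to 119 CPM in experiment 2, the reverse of its order in oligodendrocytes, and Hsp90aa1 overlapped. The oligodendrocyte gene Mbp had the same order in these microglia, with 45.7 and 53.0 CPM in experiment 1 and 174 and 257 CPM in experiment 2. The part of oligodendrocyte RNA in the microglial Cryab values was not tested. The libraries are those of the oligodendrocytes above, so this is no separate set of mice. Hspa5 in white matter library 1 was 1.29-fold the mean of libraries 2 and 3, and Hsph1 1.48-fold. In the microglia contrast gray matter was 1 library, so the spread came from the 3 white matter libraries alone, and gray matter was assumed to vary like them. Between white and gray matter, edgeR called 0 of 8 genes, with none at an unadjusted p under 0.05, where 3.13% of 12660 genes were called, and DESeq2 called none. The median was −0.02 (all genes, 0.02), with Hspa5 at −0.31 ± 0.18 (SE), Hsp90aa1 at 0.24 ± 0.14 and Cryab at 0.74 ± 0.44. Hspa1a stood at 0.19 ± 0.94, Hspa1b at −0.15 ± 0.98, Hsph1 at −0.24 ± 0.35, Dnajb1 at −0.25 ± 0.22 and Hspa8 at 0.11 ± 0.18. These folds include edgeR's scaling of the libraries, which the CPM levels do not. In CPM, Hsp90aa1 measured 228 in gray and on average 228 in white matter, and Hspa8 696 and 636. Without white matter library 1, which leaves the 2 experiments on opposite sides, Hspa5 stood at −0.47 and Cryab at 0.94. How many of all genes differed as much in that fit was not computed. Of the further chaperones, 0 of 79 were called, 13 (16.5%, against 15.5% of all tested genes) had an unadjusted p under 0.05 (smallest edgeR adjusted p = 0.0656) and the median was 0.01. Of 19 immediate early genes, edgeR called 4 higher in white matter, against 3.13% of all tested genes called in either direction: Egr1 (4.63 ± 0.43, adjusted p = 0.00262), Egr2, Atf3 (2.58 ± 0.36, adjusted p = 0.0114) and Klf2, while Fos stood at 0.85 ± 0.90 and Jun at −0.31 ± 0.20. Simulated 2-fold changes were recovered in 22% of genes in this comparison and 4-fold changes in 94%.

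Among microglia clusters of white matter, described without a test, the interferon-responsive microglia (IRM) held the highest means of Hspa5, Hspa8 and Hsp90aa1. Hspa5 averaged 720 ± 81.2 CPM in IRM (SD, n = 2 libraries with at least 10 cells), 534 ± 75.3 CPM in Homeostatic1, 479 ± 148 CPM in white matter-associated microglia (WAM), 366 ± 54.4 CPM in Homeostatic2 and 237 ± 30.7 CPM in Activated (n = 3). Activated microglia were lowest in 3 of 3 libraries for Hspa5, as they were for Hsph1 and Dnajb1 on 9 and 15 UMIs. Hspa8 averaged 1012 ± 92.3 CPM in IRM and 819 ± 104 CPM in WAM, and was lowest in Homeostatic1 in 3 of 3 libraries (544 ± 106 CPM). Hsp90aa1 averaged 361 ± 6.01 CPM in IRM and 201 to 262 CPM in the other clusters. Cryab was highest in Activated in 3 of 3 libraries, at 108 ± 59.9 CPM on 118 UMIs. IRM held 37 and 13 cells in these libraries, so their values rest on few cells.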

How the data were processed

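Single-cell suspensions of 8 libraries were sequenced with 10x Genomics 3′ v3.1 chemistry. The deposited values were UMI counts per gene and cell, which the authors made with Cell Ranger (4 and genome build mm10 per the labels; other versions by genotype and batch in the methods) and filtered, with clusters named in their metadata. Doublets were not called again. The highest UMI total of a cell was 19911 to 19979 in Rag1-/- libraries and 23094 to 49480 in wild type. Counts were summed per library over all deposited oligodendrocytes, over clusters with at least 10 cells, and over microglia. Microglia counts came from the table of all Rag1-/- cells (7421 of 7430 matched), and 8171 microglia of 4 libraries of another series were not used. Gm42418 and AY036118, which take up ribosomal reads, were dropped. Oligodendrocyte depth was 2754274 to 44269555 UMIs per library, so a rare gene such as Hspb1 was measured least precisely in wild-type experiment 1.

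edgeR 4.0.16 (TMM, filterByExpr, quasi-likelihood test) was fitted to all 8 libraries as 4 groups, with an adjusted p of 0.05 as the threshold, in R 4.3.3. DESeq2 1.42.0 and limma 3.58.1 served as alternatives. Python 3.11.15, numpy 2.4.6, pandas 2.3.3, scipy 1.17.1 and matplotlib 3.10.9 were used for sums and plots. The fits were tested on simulated data. The 9 genes, the further lists and the tests were chosen with earlier results of these data known. All 9 genes were named in each comparison of whole cell types, called genes of the further lists up to 5 (immediate early genes 3, with Fos and Jun always) in each direction, and the 5 genes most like Hspa1a and Cryab. Chosen after their values were seen were Cdkn1a, Sgk1, Hsp90ab1, Fkbp5 and the Cryab limit, the chaperones named at an unadjusted p under 0.05, and the immediate early genes past 3 in microglia. The main fit did not pair the wild-type gray and white matter libraries of a pool. Residuals of the same pool correlated (0.41 over 13067 genes), a value that 2 groups of 2 give for both pairs alike. The pool entered only the alternatives with a fixed or random replicate block. Fits within 1 Rag1-/- experiment were added after seeing the data. P-values measure the spread between these libraries.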

Additional observations from a re-analysis of the deposited data

How the results depend on the processing

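Over 19 comparisons, 185 of 196 alternative counts of called genes stayed within range and 11 moved. No share of all genes called stands beside these alternative counts, since it was taken for the main fits only. Of 477 alternative values of single genes, 409 kept direction and call, 62 reversed (0 of them past the threshold) and 6 became calls. RLE size factors, no filter on low counts, cells under 20000 UMIs and a minimum of 30 cells reversed no gene and changed no count. The cause of the changes given here was not tested, and all values are log2 fold changes unless called counts. With the mouse pool as a fixed replicate block, 1 gene was called between wild-type tissues (Hspb1), and the Rag1-/- tissue difference became 0.31 for Hspa1a, 0.21 for Hspa1b, 0.065 for Hsph1, 0.25 for Dnajb1 and 0.057 for Hspa8. The replicate block changed no other call, and the spread in its fixed form came from the wild-type pairs alone. As a random replicate block (estimated correlation 0.49), it gave 0.056 for Hspa1a and 0.050 for Dnajb1 between Rag1-/- tissues, −0.31 for Hspa1a and −0.025 for Hspa5 between genotypes in white matter, and −0.51 for Hspa1a, −0.29 for Hsph1 and −0.0086 for Hspa8 in gray matter. DESeq2 gave −0.000609 for Dnajb1 between wild-type tissues. Library sizes alone gave −0.00383 for Dnajb1 there, −0.045 for Hspa5 between genotypes in white matter, and −0.045 for Hspa1a and −0.13 for Hspa8 in microglia. Equal weight of clusters gave 0.028 for Hspa1a, −0.055 for Dnajb1 and −0.037 for Hspa5 between wild-type tissues, 0.079 for Hspb1 between genotypes in white matter and −0.0065 for Hspa8 in gray matter. With Rag1-/- experiment 1 only, the tissue difference was 0.29 for Hspa1a, 0.19 for Hspa1b, 0.047 for Hsph1, 0.23 for Dnajb1 and 0.039 for Hspa8, and the white matter genotype difference 0.30 for Hsph1, 0.016 for Dnajb1, 0.14 for Hspa8 and 0.54 for Hspb1. With experiment 2 only, that difference was −0.45 for Hspa1a, −0.089 for Hspa1b and −0.23 for Hspa5, and 1 gene was called (Hsph1).

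Leaving out 1 library at a time gave 0 to 1 called genes between Rag1-/- tissues, 0 to 1 between genotypes in white matter and 0 to 2 in microglia, each highest without Rag1-/- white matter library 1. It gave 0 to 1 between genotypes in Oligo1a, 0 to 1 in Oligo1b, 0 to 1 in Oligo1c, 0 to 1 in Oligo2b and 0 to 2 in ARO, and 0 to 1 between wild-type tissues in Oligo1b. Both Oligo1b calls came without wild-type white matter library 2, the others without Rag1-/- white matter library 1. Between wild-type tissues the range was −1.96 to 1.12 for Hspa1a, −1.23 to 0.87 for Hspa1b, −0.23 to 0.18 for Dnajb1, −0.21 to 0.31 for Hspa5, −0.16 to 0.16 for Hspa8 and −0.017 to 0.28 for Cryab. Between Rag1-/- tissues it was −0.51 to 0.00242 for Dnajb1. Between genotypes in white matter it was −0.48 to 1.84 for Hspa1a, −0.097 to 1.74 for Hspa1b, −0.23 to 0.28 for Hspa5, −0.082 to 0.061 for Hspa8 and −0.87 to 0.079 for Hspb1, and in gray matter −0.20 to 1.58 for Hspa1a and −0.082 to 0.25 for Hspa8. In microglia it was −0.55 to 0.00540 for Hsph1 and −0.048 to 0.21 for Hspa8, and Hspa1b reached 0.062 to 0.19 where it reversed. Where a group kept 1 library, it was assumed to vary like the others.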
